A study of Mus musculus with 6 samples.

Results

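The 10 genes described here belong to the mouse Ms4a family of membrane proteins: Ms4a1, Ms4a2, Ms4a3, Ms4a4a, Ms4a4b, Ms4a4c, Ms4a6b, Ms4a6c, Ms4a6d and Ms4a7. They were taken as every probe set that the platform annotation assigns to one of these names, which gave 1 probe set for each of the 10 genes, out of 19938 genes with a single symbol and 35512 probe sets on the array. The cells were a mouse leukemia line named for its MLL-AF10 fusion, grown in RPMI with fetal bovine serum and WEHI conditioned medium. There were 3 samples given 0.5 µM of an IKK inhibitor and 3 samples given vehicle, and all 6 carried the same fusion by their labels. IKK kinases release NF-kB transcription factors from their inhibitors. The sources used here do not name the inhibitor or the treatment time, nor do they say whether the 3 samples of a group were separate cultures. The p-values therefore reflect the spread among these samples alone, and this may be a technical spread. A single line was used, so the data describe that line.

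Ms4a proteins cross the membrane 4 times, with both ends inside the cell, and many sit beside receptors in the plasma membrane. The family is used by blood cell types in a divided way: Ms4a1 (CD20) marks B cells, Ms4a2 is the beta chain of the high-affinity IgE receptor of mast cells and basophils, Ms4a3 (HTm4) marks progenitors of granulocytes and monocytes, and Ms4a4a, Ms4a6c, Ms4a6d and Ms4a7 are used by monocytes and macrophages. Ms4a14 and Ms4a18 were not analysed here.

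The promoter windows of Ms4a3 and Ms4a7, which were called in opposite directions, and of Ms4a6c, which lay at the threshold, are shown first, because the family shares 1 cluster on chromosome 19. RefSeq windows of 300 bases, 250 before to 50 after the start of a transcript, were matched by symbol for 8 of the 10 members, on GRCm38.p6. There were 9 windows in all, since Ms4a7 has 2 annotated starts. Ms4a1 and Ms4a6d had no entry. Capitals mark matches, on either strand, to 7 short motifs. These were GAGGAA as the core of PU.1 sites, TTGCNNAA for C/EBP, TGTGGT for RUNX, GGGNTTTCC for NF-kB, GGAANNGAA as a joint element of ETS and IRF factors, GAAANNGAA as an interferon response element and TATAAA for the core promoter box. The last letters of GGAANNGAA and GAAANNGAA are alike, so that those motifs can overlap in part. The windows are read 5′ to 3′ on the strand of the gene, Ms4a3 at chr19:11640802-11641101 (minus strand), Ms4a6c at chr19:11469118-11469417 (plus strand) and the upstream start of Ms4a7 at chr19:11336097-11336396 (minus strand).
Ms4a3: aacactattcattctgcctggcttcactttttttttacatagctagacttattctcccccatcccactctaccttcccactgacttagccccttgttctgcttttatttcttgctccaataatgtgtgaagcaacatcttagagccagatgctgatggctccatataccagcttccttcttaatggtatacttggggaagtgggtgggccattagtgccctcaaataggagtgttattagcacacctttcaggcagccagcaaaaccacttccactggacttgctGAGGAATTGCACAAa
Ms4a6c: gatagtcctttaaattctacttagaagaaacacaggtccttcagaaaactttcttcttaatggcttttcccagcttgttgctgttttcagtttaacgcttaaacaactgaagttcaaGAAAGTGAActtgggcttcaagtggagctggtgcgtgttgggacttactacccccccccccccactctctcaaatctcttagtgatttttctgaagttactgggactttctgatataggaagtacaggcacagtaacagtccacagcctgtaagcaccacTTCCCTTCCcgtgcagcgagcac
Ms4a7: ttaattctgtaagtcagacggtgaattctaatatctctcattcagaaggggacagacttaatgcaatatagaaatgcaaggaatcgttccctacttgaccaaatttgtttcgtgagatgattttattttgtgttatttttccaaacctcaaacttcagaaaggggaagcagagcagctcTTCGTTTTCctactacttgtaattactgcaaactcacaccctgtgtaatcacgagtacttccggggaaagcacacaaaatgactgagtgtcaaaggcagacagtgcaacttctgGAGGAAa

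In the Ms4a3 window a PU.1 core and a C/EBP core stand side by side just after the start, at bases 36 and 42. The upstream Ms4a7 window holds an interferon element on the opposite strand at base -71 and a PU.1 core at base 44, and the downstream Ms4a7 window holds an interferon element at base -148. The Ms4a6c window holds an interferon element at base -133, with the same letters as one at base -206 of Ms4a6b, and a joint ETS and IRF element on the opposite strand at base 28. The Ms4a4a window holds gggattttcc, which fits a longer form of NF-kB site. It was not counted, because only the shorter motif GGGNTTTCC was searched. A count of none for that motif therefore does not mean that no member window holds an NF-kB site. Over the 9 member windows the PU.1 core was found in 4, the interferon element in 4, the C/EBP core in 1 and the NF-kB motif GGGNTTTCC in none. Among 32851 promoter windows of the same length the shares were 28.3%, 8.56%, 10.8% and 1.68%. The joint ETS and IRF element, the RUNX motif and the core promoter box TATAAA were each found in 1 member window. Of these 32851 windows, 8.24%, 16.8% and 13.6% held them, in that order. These windows had a median GC content of 52.7%, against 31.7% to 45.0% in the member windows, and the shares were not matched for this. The 4 windows with the interferon element were those of Ms4a6b and Ms4a6c, which are alike in sequence, and of both starts of Ms4a7. They therefore do not stand for 4 separate genes. The closest pairs in a global alignment were Ms4a4b with Ms4a4c, at 223 of 300 identical bases, and Ms4a6b with Ms4a6c, at 189 bases, against a median of 148 bases over the 36 pairs of member windows. The windows of both Ms4a7 starts had 141 identical bases, below that median. A match describes the letters of a window and does not show that a factor binds there.

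The IKK inhibitor was accompanied by less Ms4a3 signal and by more Ms4a7 and Ms4a6d signal. Ms4a7 was 2.41-fold and Ms4a6d 1.57-fold higher, while Ms4a3 fell to 0.678 of its vehicle level. These 3 were the members past an adjusted p of 0.05 in limma, 2 of them higher and 1 lower, and the other 7 did not pass. Of all 19847 genes tested, 13.9% passed, 7.1% higher and 6.75% lower. Inhibitor and vehicle arrays did not overlap for 6 members, 3 higher and 3 lower, beside 32.9% of all genes. Over the 10 members the median log2 fold change was 0.01, beside a median of 0.0064 over all genes tested. Fewer cells of a type and less RNA per cell cannot be told apart in these bulk samples.

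**Figure D1:**
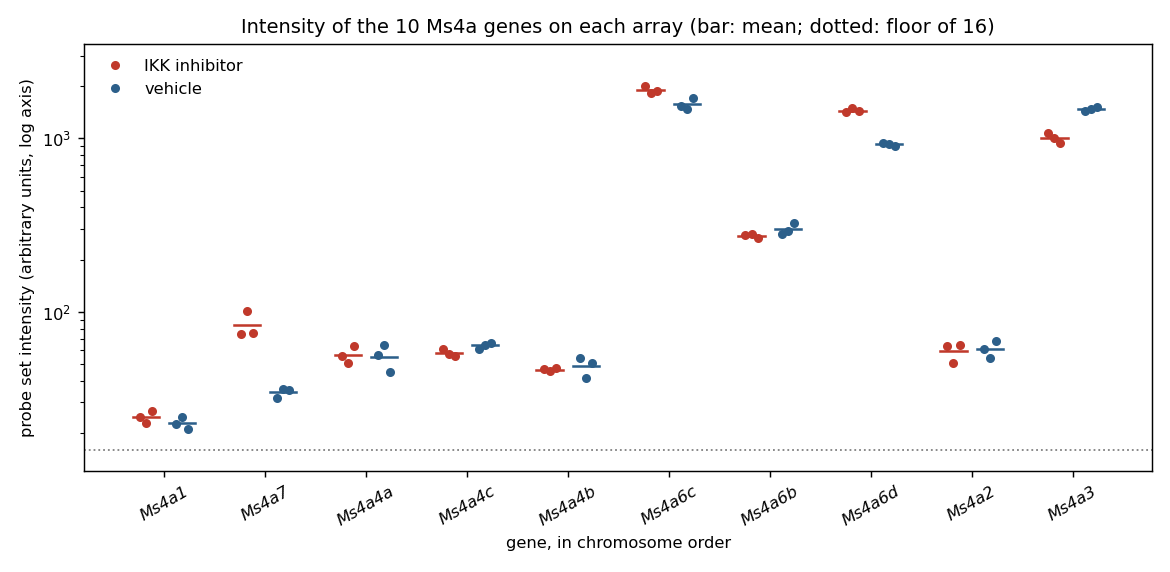
Probe set intensity (arbitrary units, log axis) of the 10 Ms4a genes in chromosome order, with IKK inhibitor arrays left of vehicle arrays, a point per array and a bar at the mean of 3. Ms4a7 and Ms4a6d lie higher and Ms4a3 lower with the inhibitor with no overlap of groups, whereas Ms4a1, Ms4a2, Ms4a4a and Ms4a4b overlap.

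Ms4a3, the progenitor gene of the family, had intensities of 1069, 998 and 937 on the inhibitor arrays, against 1437, 1479 and 1510 on the vehicle arrays. All 3 inhibitor arrays lay below all 3 vehicle arrays, and the closest 2 arrays of the groups were further apart than the whole range of either group. The means were 1001 ± 66.3 with the inhibitor and 1475 ± 36.8 with vehicle (SD, n = 3 each). The log2 fold change was -0.56 ± 0.06 (SE, limma), with a 95% interval of -0.71 to -0.41 and an adjusted p of 0.00252. By the size of the fall it ranked 81 among the 19847 genes tested. The protein is a regulator of the cell cycle in blood cells, and in human cells it binds the CDK2 phosphatase encoded by Cdkn3. Cdkn3 itself had a log2 fold change of -0.12 and Cdk2 of -0.08, both named after their values were seen, and neither passed (adjusted p = 0.318 and 0.413 by limma).

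Ms4a7, a gene of mature macrophages, showed the largest relative change among the 10. Its intensities were 73.9, 100.6 and 75.7 on the inhibitor arrays, against 31.6, 35.9 and 35.3 on the vehicle arrays. Every inhibitor array was above every vehicle array, and the second inhibitor array stood above the other two. The means were 83.4 ± 14.9 with the inhibitor and 34.3 ± 2.31 with vehicle (SD, n = 3 each). The log2 fold change was 1.27 ± 0.13 (SE), with a 95% interval of 0.97 to 1.57 and a limma adjusted p of 0.00148. By the size of the rise it ranked 74 among all genes tested. The probe set was dim: 16.7% of genes had a lower mean over the 6 arrays, inhibitor arrays included. The vehicle mean alone was dimmer still, and whether it was above background was not judged. With values under 64 set to 64, which covers all 3 vehicle arrays, the log2 fold change was 0.37 and did not pass (adjusted p = 0.0713).

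Ms4a6d, a monocyte and macrophage gene, had intensities of 1410, 1493 and 1434 on the inhibitor arrays, against 936, 930 and 901 on the vehicle arrays. The groups were separated by far more than their own spread, with means of 1445 ± 42.7 with the inhibitor and 922 ± 18.8 with vehicle (SD, n = 3 each). Its log2 fold change was 0.65 ± 0.05 (SE), with a 95% interval of 0.53 to 0.76 and the smallest adjusted p of the members, 0.000476 by limma. Ms4a6d and Ms4a3 thus moved by similar amounts on the log2 scale in opposite directions, both from bright probe sets.

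Ms4a6c, the related monocyte gene, had intensities of 2003, 1818 and 1874 on the inhibitor arrays, against 1534, 1478 and 1707 on the vehicle arrays. The groups did not overlap, but the third vehicle array came close to the lowest inhibitor array. The log2 fold change was 0.27 ± 0.07 (SE), with a 95% interval of 0.10 to 0.44. Its adjusted p was 0.0503 by limma, just short of the threshold. It passed under 9 of the 19 alternative settings, with an adjusted p between 0.00183 and 0.164 and a positive fold change under all 19. Ms4a6c therefore lay at the threshold, and its call rested on the settings.

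**Figure D2:**
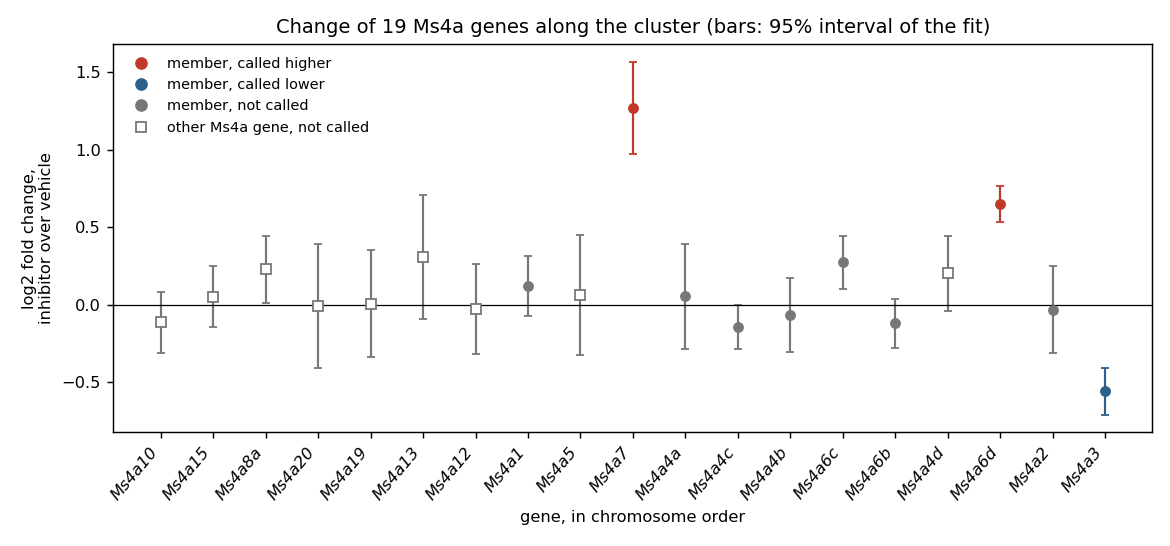
Log2 fold change (inhibitor over vehicle) of 19 Ms4a genes in chromosome order, with the 95% interval of the limma fit. Circles are the 10 members and open squares the 9 other family genes; Ms4a7 and Ms4a6d were called higher and Ms4a3 lower, and the remaining 16 were not called.

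Ms4a6b, whose product was described on mouse T cells, lies between Ms4a6c and Ms4a6d in the cluster and was not called. Its intensities were 277, 282 and 265 on the inhibitor arrays, against 282, 291 and 324 on the vehicle arrays. All 3 inhibitor arrays lay below the vehicle arrays by a narrow margin, and the log2 fold change of -0.12 (95% interval -0.28 to 0.04) did not pass (adjusted p = 0.316 by limma). The upper bound of that interval is a fold of 1.03, below the lower bounds of Ms4a6c (1.07) and Ms4a6d (1.45), although the difference between these genes was itself not tested. Members of the Ms4a6 group are similar in sequence. Whether a probe set also reads the transcript of a relative was not tested, and the values of these genes are uncertain to that extent. No member's values were the same as those of another probe set.

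The Ms4a4 group gave weak signals on all arrays. Ms4a4a, used by macrophages, had intensities of 55.3, 50.9 and 63.8 with the inhibitor, against 56.2, 63.9 and 44.8 with vehicle. The groups overlapped fully, with a log2 fold change of 0.05 (95% interval -0.29 to 0.39), so a change of up to 1.31-fold upward or to 0.82 of the vehicle level lies within the interval. Ms4a4c had intensities of 60.8, 56.7 and 55.6 with the inhibitor, against 60.9, 64.4 and 66.4 with vehicle. Its highest inhibitor array lay just under its lowest vehicle array, and the log2 fold change was -0.15 (95% interval -0.29 to -0.0056), which did not pass after adjustment over all genes (adjusted p = 0.168 by limma). Ms4a4b, a T cell gene, had 46.5, 45.2 and 47.4 with the inhibitor, against 54.2, 41.5 and 50.9 with vehicle. Its inhibitor arrays sat inside the range of the vehicle arrays, with a log2 fold change of -0.07 (95% interval -0.30 to 0.17). The promoter windows of Ms4a4b and Ms4a4c are alike, which does not show how alike their transcripts are. Whether a probe set of this group also reads a relative was not tested. These values carry the same uncertainty as those of the Ms4a6 group.

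The B cell and mast cell members did not pass. Ms4a1 had weak intensities of 24.8, 22.9 and 26.7 with the inhibitor, against 22.6, 24.65 and 21.2 with vehicle. The groups overlapped, and the log2 fold change was 0.12 (95% interval -0.07 to 0.31). Ms4a2 had intensities of 63.7, 50.7 and 64.5 with the inhibitor, against 60.6, 54.4 and 67.5 with vehicle. These overlapped as well, with a log2 fold change of -0.03 (95% interval -0.31 to 0.25). The deposited values hold no detection calls, so whether Ms4a1, Ms4a2 and the Ms4a4 genes were above background was not judged. Nor was this judged for Ms4a7 with vehicle. Its vehicle mean of 34.3 lay above that of Ms4a1 (22.8) and below those of Ms4a2 and the Ms4a4 genes. Brightness of different probe sets says nothing on relative transcript amounts.

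**Figure D3:**
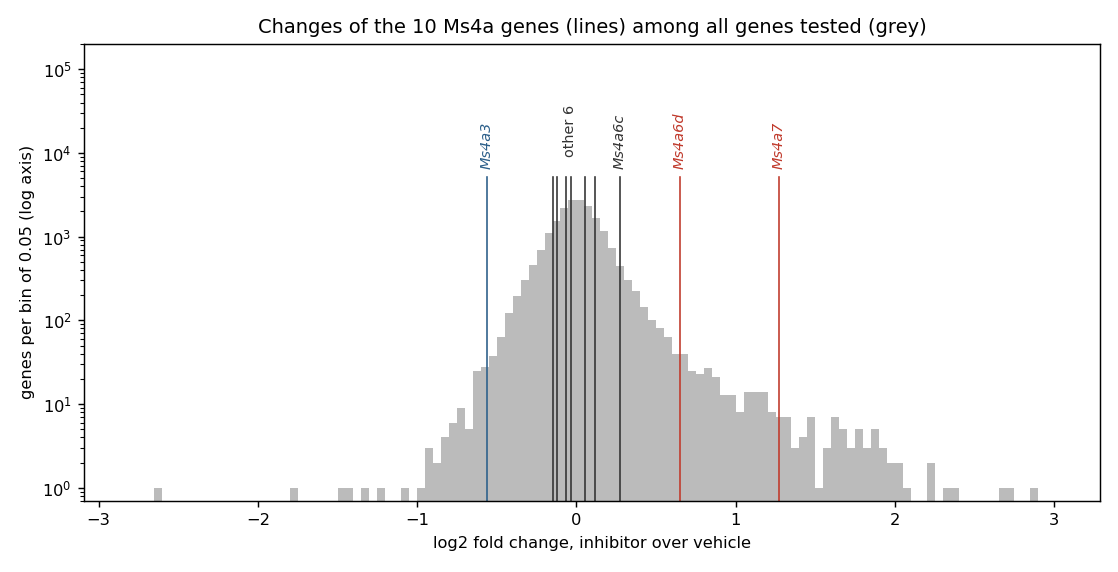
Histogram of log2 fold changes (inhibitor over vehicle) of the 19847 genes tested, counted in bins of 0.05 on a log axis, with a line for each of the 10 Ms4a genes. Ms4a3 (-0.56), Ms4a6d (0.65) and Ms4a7 (1.27) lie in the tails, and Ms4a6c (0.27) lies between these and the other 6.

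Among 9 further Ms4a genes and the related genes Tmem176a and Tmem176b, none of 11 passed in limma, and 1 of them, Ms4a8a, had an unadjusted p under 0.05. The groups overlapped for all 11. Their log2 fold changes ran between -0.11 for Ms4a10 and 0.31 for Ms4a13. Ms4a8a had 189.7, 151 and 173 with the inhibitor, against 153, 138 and 146 with vehicle, a log2 fold change of 0.23 (95% interval 0.01 to 0.44, adjusted p = 0.159 by limma). Ms4a13 had 60.4, 45.3 and 73.5 with the inhibitor, against 49.8, 49.4 and 43.2 with vehicle, and inhibitor array 2 lay inside the vehicle range while the other two lay above it. Without inhibitor array 2, Ms4a8a and Ms4a13 both passed (adjusted p = 0.0405 and 0.0367 by limma), and Ms4a8a also passed with array weights (0.0231).

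The members that passed were not neighbours in the cluster. In the reference order Ms4a7 is followed by Ms4a4a, Ms4a4c and Ms4a4b, none of which passed, and Ms4a2 lies between Ms4a6d, which rose, and Ms4a3, which fell. Of the 6 nearest measured protein-coding genes outside the cluster, Ccdc86, Ptgdr2 and Zp1 on one side and Oosp2, Oosp1 and Oosp3 on the other, none passed by limma, and 2 had an unadjusted p under 0.05. These were Oosp3, a dim gene with a log2 fold change of 0.53 (adjusted p = 0.0764), and Ptgdr2, with a log2 fold change of 0.19 (adjusted p = 0.0649).

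Genes of the same cell types moved with the members, and their part in the Ms4a results was not tested. Over all genes tested, 6.75% were lower and 7.1% higher. Of 13 genes of granulocyte and monocyte progenitors, 7 were lower and 1 was higher, with a median log2 fold change of -0.24. They included the granule gene Mpo (-2.62), Nkg7 (-0.85) and the repressor gene Gfi1 (-0.34), while Mgst1 was higher (0.95). With inhibitor array 1, vehicle array 2 or vehicle array 3 left out on its own, 4 genes of the list were called lower each time. The summed intensity of the list was 23729 to 24144 on the inhibitor arrays and 25237 to 26104 on the vehicle arrays. Ms4a3 thus stood beside a list of mostly lower genes, in which Ctsg (-0.01) and Cebpe (-0.01), named after their values were seen, did not pass.

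Of 17 monocyte and macrophage markers tested from a list of 20, 12 were higher and none lower by limma, and no lower gene had an unadjusted p under 0.05. The shares over all genes tested were 7.1% higher and 6.75% lower. The median log2 fold change of the markers was 0.63. Examples were Treml4 (2.23), the macrophage antigen gene Adgre1 (1.43), the growth factor receptor gene Csf1r (1.23) and the integrin gene Itgam (0.69). The summed intensity was 19736 to 20749 on the inhibitor arrays and 13012 to 13216 on the vehicle arrays. The Ms4a6d change of 0.65 lay near this median, that of Ms4a7 lay above it, and that of Ms4a6c lay below it. The other 5 monocyte markers, among them the chemokine receptor genes Ccr2 (-0.05) and Cx3cr1 (-0.12), named after their values were seen, did not pass. Ms4a4a, used by macrophages, did not pass either.

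**Figure D4:**
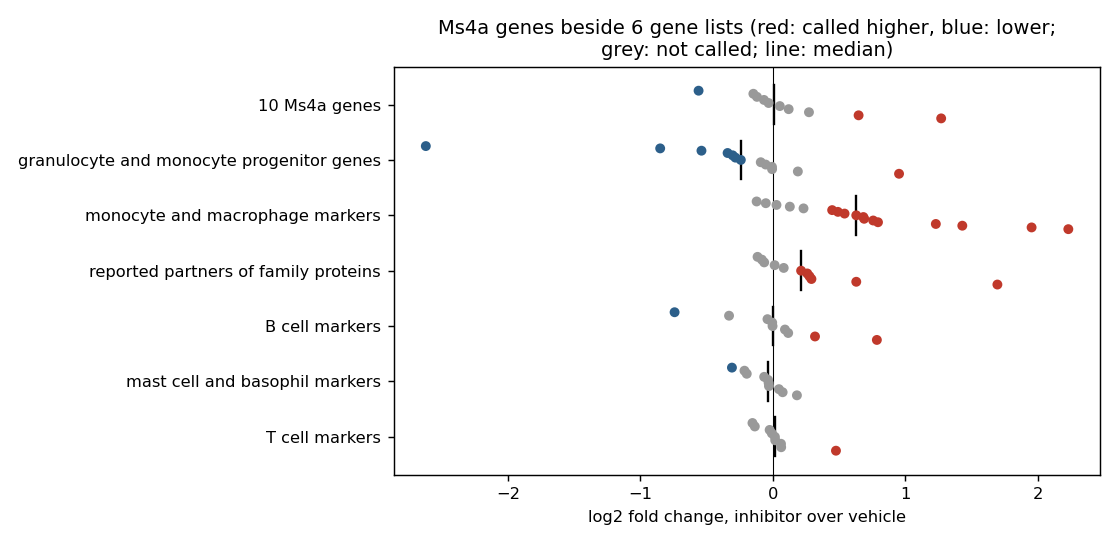
Log2 fold change (inhibitor over vehicle) of the 10 Ms4a genes and of 6 gene lists, a point per gene, red for genes called higher, blue for lower, grey for not called, and a line at each median. The medians of progenitor genes (-0.24) and monocyte markers (0.63) lie on opposite sides of 0, and the Ms4a genes spread to both sides of their median of 0.01.

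Among markers of the cell types that Ms4a1, Ms4a2 and Ms4a4b stand for, calls went both ways for B cells only. The mast cell and basophil list and the T cell list had 1 call each. Of all genes tested, 7.1% were called higher and 6.75% lower. Of 9 B cell markers, 2 were higher, Cd22 (0.79) and Blnk (0.32), and 1 was lower, Igll1 (-0.74), with a median of -0.0022. With a floor of 64 or the filter at the 25th percentile there was 1 higher call, with quantile normalization or median centring there were 2 lower calls, and with the filter at the median of all genes no B cell marker was called. Of 10 mast cell and basophil markers Hdc was lower (-0.31) and the median was -0.03. Of 9 T cell markers Cd28 was higher (0.48), with a median of 0.02. Summed intensities overlapped between the groups for B cell markers, at 921 to 965 with the inhibitor and 910 to 974 with vehicle, and for mast cell and basophil markers, at 860 to 969 with the inhibitor and 938 to 1006 with vehicle. The T cell sums did not overlap, at 1357 to 1493 with the inhibitor and 1251 to 1328 with vehicle, of which Cd28 made up 520.2 ± 23.3 with the inhibitor and 374 ± 18.9 with vehicle (SD, n = 3 each). None of these defining markers was at 0, since every probe set gives some signal.

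Of 11 genes whose products are reported to act with Ms4a proteins, 6 were higher and none lower by limma, with a median log2 fold change of 0.21, and no lower member had an unadjusted p under 0.05. Beside them, 7.1% of all genes tested were higher and 6.75% lower. Trem2, a macrophage receptor whose shed form is tied to MS4A genes in humans, was higher by 1.70 ± 0.09 (SE) on the log2 scale, at 945 ± 51.5 with the inhibitor and 292 ± 31.7 with vehicle (SD, n = 3 each). Clec7a, the dectin-1 gene whose product meets Ms4a4a on macrophages, was higher by 0.63. The tetraspanin gene Cd82 was higher by 0.29 and Fcer1g, the signalling chain shared by Fc receptors, by 0.26. Fcer1a, which encodes the IgE-binding chain that joins Ms4a2 and was named after its values were seen, did not pass (log2 fold change -0.07, adjusted p = 0.634 by limma). With each array centred on its median 2 of these genes were called higher, as without vehicle array 1 or vehicle array 3, and 3 were called without inhibitor array 1 or vehicle array 2.

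**Figure D5:**
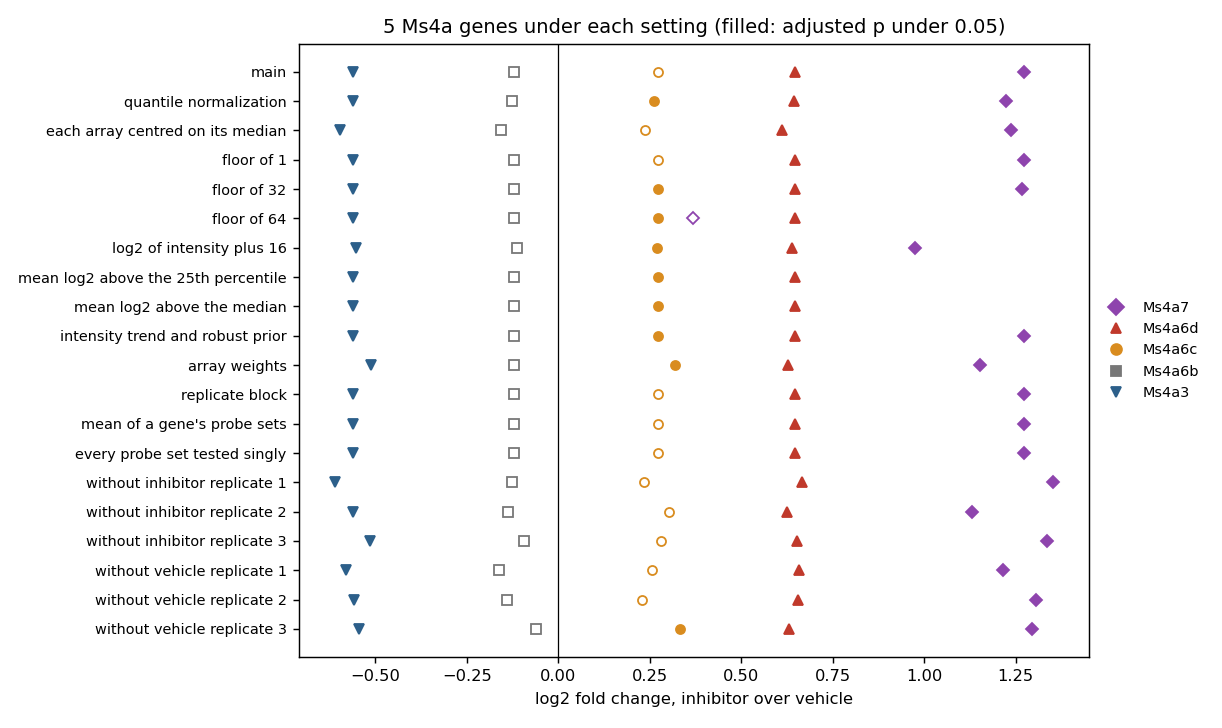
Log2 fold change (inhibitor over vehicle) of 5 Ms4a genes under the setting reported and 19 alternatives, filled where the adjusted p was under 0.05. Ms4a3 and Ms4a6d were called under every setting shown, Ms4a6c under 9 of the 19 alternatives, Ms4a6b under none, and Ms4a7 was not called with a floor of 64 and was not tested with either filter on dim genes.

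The arrays were alike in brightness, with medians of 112 to 124. Across genes, log2 values of 2 arrays correlated at 0.988 to 0.991 between groups and 0.993 to 0.997 within a group. Leaving out inhibitor array 2 gave 2810 calls over all genes, close to the 2749 with every array, whereas leaving out any other array gave 1183 to 1841. The label of leukemia cells names no lineage. Without detection calls the presence of lineage markers was not judged. The fusion itself was not checked here. The number of arrays limits the precision of every value.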

How the data were processed

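Expression was measured in 6 samples of mouse MLL-AF10 leukemia cells on Affymetrix whole-transcript arrays. The deposited intensity values come from the authors' run of Affymetrix Expression Console, according to the submitters' processing notes, which give no version, summarization or normalization between arrays. Deposited values ran from 0.71 to 8186 and were read as linear.

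Values below 16 were set to 16 (5.94% of all values) and log2 was taken, which understates changes of dim genes. Of 35512 probe sets, 21789 have 1 gene symbol, 1621 several and 12102 none in the platform annotation. Symbols were updated through Entrez numbers, which matched for 21698. The probe set with the highest mean was used for each gene, and 91 genes with no array above the floor were left out of the test. Groups came from the treatment label.

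Inhibitor was compared with vehicle in limma 3.58.1 (lmFit and eBayes in R 4.3.3, without covariates, 2-sided), Benjamini-Hochberg adjusted over 19847 genes. Intervals and SE of fold changes are those of the fit. The fit was tested on simulated data. The genes, lists, floor and tests were chosen with earlier results of these data known. Named genes were the 10 members, the other Ms4a and Tmem176 genes, 6 genes bordering the cluster and up to 4 genes per list with the smallest p, and Cdkn3, Cdk2, Fcer1a, Ctsg, Cebpe, Ccr2 and Cx3cr1 were added after their values were seen. The 19 alternatives cover scaling, floor, filters, variance model, array weights, a replicate block, probe set choice and each array left out.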

Additional observations from a re-analysis of the deposited data

How the results depend on the processing

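Ms4a3 was called lower and Ms4a6d higher under all 19 alternatives, with log2 fold changes of -0.61 to -0.51 and of 0.61 to 0.67. Ms4a7 was called higher under 16 of the 17 alternatives that tested it (0.37 to 1.35), the exception being the floor of 64. Ms4a6c moved to the other side of the threshold under 9 alternatives, among them quantile normalization (adjusted p = 0.0466) and leaving out vehicle array 3 (0.0488). The number of members called was 3 or 4 under every alternative, with 4 when vehicle array 3 was left out and 3 when any other array was. Over the lists of other genes 30 were called, and 23 to 34 under the alternatives, with Clec7a and Fcer1a, which stand in more than 1 list, counted once. Over all genes, 2749 were called, against 4199 with an intensity trend and robust prior, 4334 with array weights, 1679 with a replicate block and 1183 to 2810 when an array was left out. Causes of these differences were not tested. Array titles share numbers between groups, but deviations from group means correlated at 0.24, 0.13 and -0.09 for equal numbers, and not every array correlated best with its own number, so the numbers were not treated as pairs. With the replicate block 3 members and 3 of the 11 partner genes were called. Members with weak probe sets (Ms4a1, Ms4a2, Ms4a4a, Ms4a4b, Ms4a4c and Ms4a7) were not tested with the filters on dim genes. No member value lay under the floor of 16, whereas higher floors altered or left out some of these members.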
